A study of Papio anubis with 767 samples.

Results

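The collagen genes of the baboon were followed through 64 tissues and around the 24 h day. They were chosen by symbol alone, as every measured gene named COL, a number, A and a number, and 38 of the 29202 genes in the table met this rule. 20432 of those genes carry a symbol of their own. The 38 comprised 10 fibrillar, 5 basement membrane network, 3 hexagonal network, 6 beaded filament and related, 1 anchoring fibril, 9 fibril-associated, 3 transmembrane and 1 multiplexin collagen, and all 38 symbols were matched in RefSeq. COL3A1, COL4A5, COL6A3, COL6A4, COL9A2, COL18A1 and COL23A1 were not analysed here.

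Messenger RNA was sequenced from 12 male Papio anubis hamadryas baboons aged 5 to 6 years, housed under 12 h of light and 12 h of darkness and fed at set hours of the day. One animal was killed and perfused every 2 h from ZT0, the start of the light phase, to ZT22, so that each time in each tissue is 1 library from 1 animal and all tissues of a time share an animal. The libraries came from 35 peripheral tissues, 7 tissues of the eye and glands and 22 brain regions, with 12 libraries per tissue apart from the iris, which had 11. An animal cannot be told apart from its time of death, and a daily rhythm rests on 12 single animals seen over 1 cycle.

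Collagens are extracellular proteins built of 3 α chains wound into a triple helix, each chain being the product of its own gene. The fibrillar type I, made of COL1A1 and COL1A2 chains, gives skin, vessel walls and connective tissue their tensile strength. Type IV forms the sheet of basement membranes, with COL4A1 and COL4A2 chains in nearly all of them and COL4A3 and COL4A4 chains in those of the kidney filter and a few other sites. Type VI makes beaded filaments around cells. Type VII makes the anchoring fibrils that tie epithelium to stroma, and type XVII is a transmembrane protein of the hemidesmosome, the junction by which basal epithelial cells hold on to their basement membrane.

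Levels are given in FPKM, fragments per kilobase of gene and per unit of library size, as deposited, so that they can be set against each other between genes as well as between tissues. Whole reads could be recovered from the values, and the libraries held from 32790 reads to 31.8 M reads, with a median of 8.26 M reads. Of these libraries, 158 gave some reason for doubt. In 87 the pattern of individual differences matched another labelled animal, and 30 stood far from the other libraries of their label. In 54 the markers of some cell type were at 10 FPKM or more and at least 20 times the median of their label. In 20 such markers, with a median of 10 FPKM or more in the label, were at least 20 times below it. A library can thus be flagged because most others of its label hold another tissue's markers. The libraries also differed along a common axis, the first principal component of their deviations from their tissue means over 12146 genes, 18 of them collagens, which carried 30.4% of that variance. Its mean score over tissues followed collection time, at 0.92 for ZT4 and 0.99 for ZT6 against −0.76 for ZT20 and −1.03 for ZT22, so a daily rhythm and this library score cannot be told apart where they move together. Results are therefore given with and without the score and with and without the doubted libraries where that matters.

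The collagen set differed from tissue to tissue. None of the 38 genes was at 1 FPKM or more in all 64 tissues, while each of the 38 reached 1 FPKM in at least 1 tissue. By comparison, 29.5% of the genes with a symbol were at 1 FPKM or more in every tissue. A tissue expressed a median of 18 of the 38 collagens at a mean of 1 FPKM or more. The count had a median of 18 in the peripheral tissues, within 8 to 23, of 25 in the eye and glands, within 11 to 29, and of 15.5 in the brain regions, within 7 to 30. The arcuate nucleus held the most collagen genes at that level, with 30 of the 38, and the hippocampus, with 7, the fewest. The summed collagen level had a median of 194 FPKM in the periphery, 407 FPKM in the eye and glands and 86.4 FPKM in the brain. In bulk tissue, fewer cells of a type and less RNA per cell cannot be told apart.

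**Figure D1:**
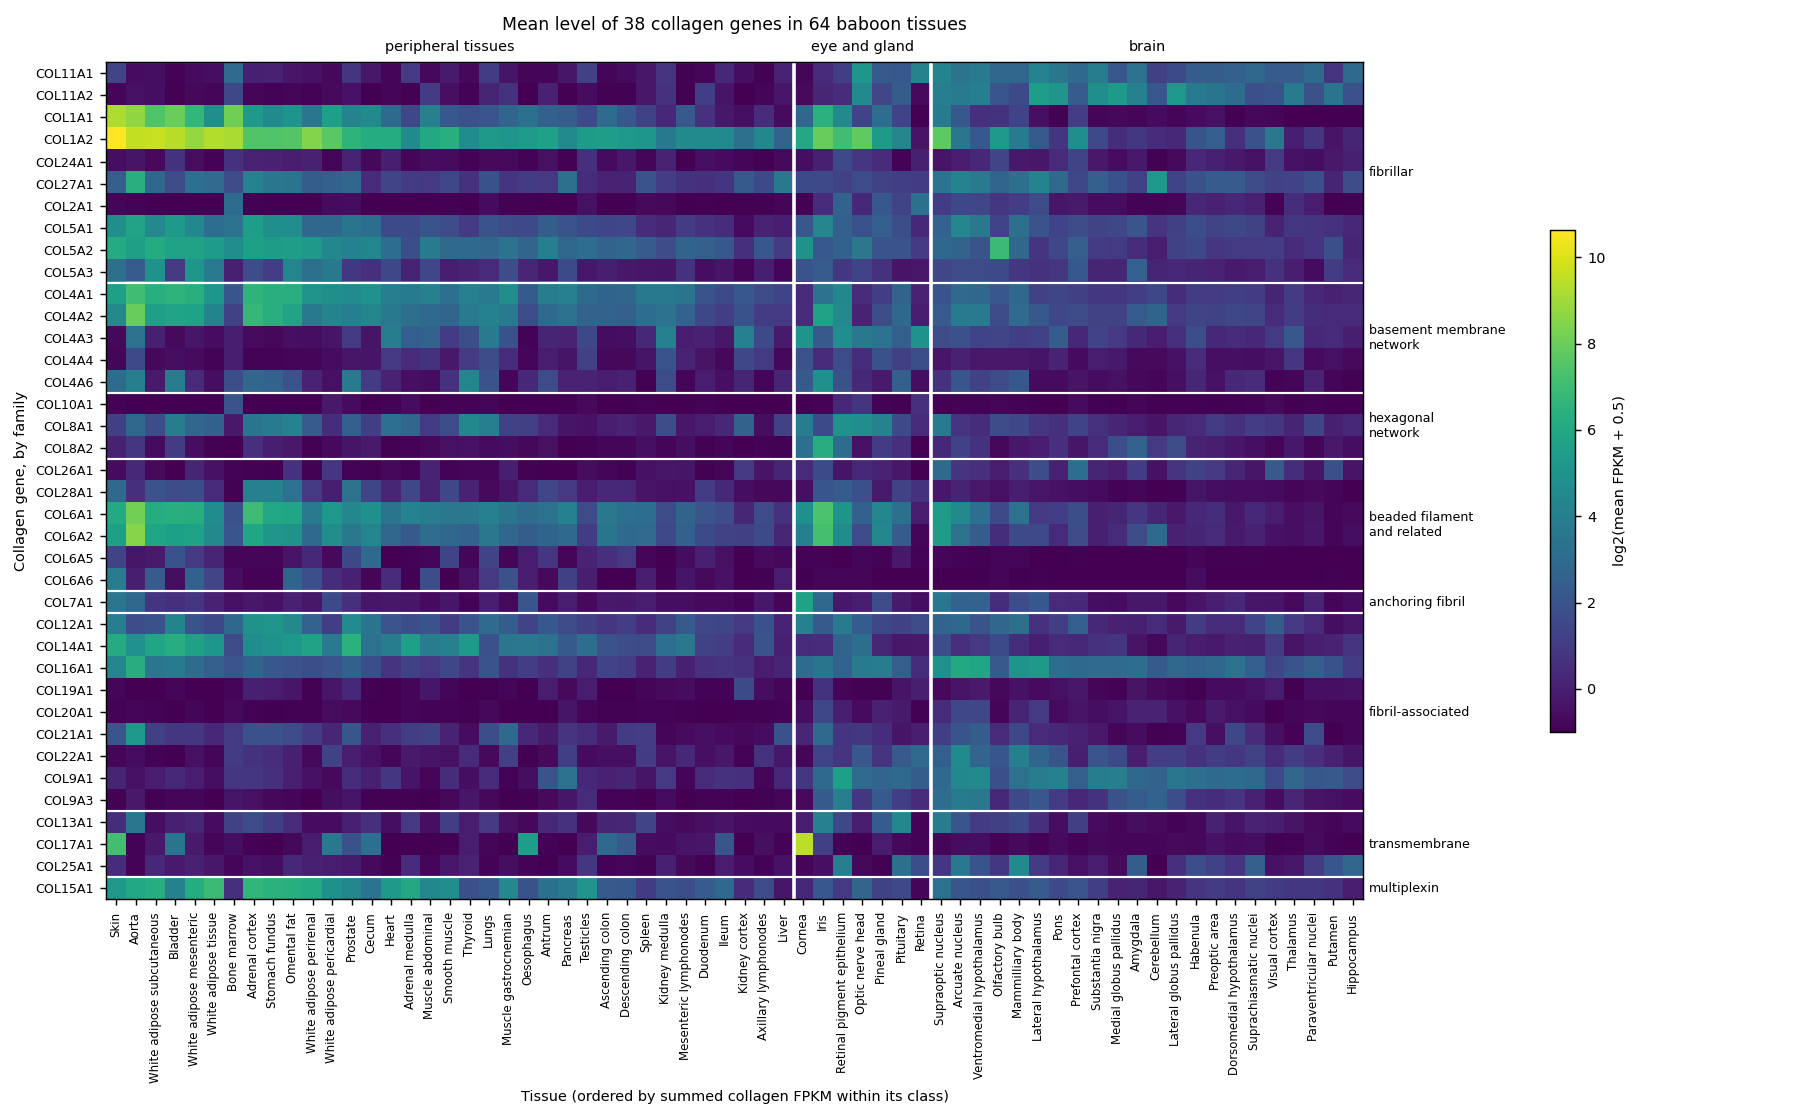
Mean level of the 38 collagens (rows, by family) in the 64 tissues (columns: peripheral, eye and gland, brain), as the log2 of mean FPKM plus 0.5. COL1A2 formed a band across all 35 peripheral tissues, while the brain columns were lit by COL11A2, COL11A1, COL16A1, COL5A2 and COL27A1.

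By mean, skin and aorta had the highest summed level of the 38 collagens. The summed level in skin was 2812 ± 1542 FPKM (SD, n = 12) and that in aorta 2659 ± 474 FPKM. Subcutaneous fat followed with 1542 ± 1147 FPKM, then the bladder with 1462 FPKM, mesenteric fat with 1084 ± 734 FPKM and the cornea with 1022 ± 350 FPKM. Aorta libraries lay within 2063 to 3731 FPKM, whereas skin libraries spread over 1243 to 6957 FPKM and bone marrow libraries over 30.6 to 5715 FPKM. Subcutaneous fat libraries, at 317 to 4432 FPKM, overlapped with those of skin and aorta. At the other end stood the liver, with 38.7 FPKM, and the hippocampus, with 34.7 FPKM.

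The make-up of the sum differed as much as its size. Fibrillar collagens made 81.5% of it in skin, 72.6% in subcutaneous fat, 51.4% in aorta, 43.7% in omental fat and 11.0% in cornea. Basement membrane collagens made 48.1% in the kidney medulla, 43.7% in the kidney cortex, 37% in the retina and 15.2% in the aorta. COL1A2 was the leading collagen in 36 tissues, 29 of them peripheral. COL11A2, a chain of the minor fibrillar type XI, led in 10 brain regions, COL16A1 in 4 and COL11A1 in 3. COL4A3 led in kidney cortex, kidney medulla and retina, and COL17A1 in cornea and oesophagus. COL27A1 led in cerebellum and liver, COL5A2 in the olfactory bulb, COL14A1 in the thyroid, COL15A1 in the libraries labelled adrenal medulla and COL13A1 in the pituitary. The libraries labelled adrenal medulla held steroid cell markers at 2272 FPKM, and those labelled adrenal cortex at 0.153 FPKM, with smooth muscle markers at 4377 FPKM, so the markers go against both labels.

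Among the fibrillar collagens, COL1A2 (ENSPANG00000007613) was highest in skin. Its 12 skin libraries ran from 674 to 3722 FPKM with a median of 1457 FPKM, and those of subcutaneous fat, the next tissue, from 200.4 to 2995 FPKM with a median of 525 FPKM. The ranges overlapped, but skin was above subcutaneous fat in all 12 animals. COL1A1 (ENSPANG00000022601) averaged 583 ± 576 FPKM in skin and 419 ± 153 FPKM in aorta (SD, n = 12 each), and the paired log2 difference of 0.00 ± 0.42 (SE) left no order between these tissues. COL5A1 was highest in aorta at 55.2 ± 18.3 FPKM, and COL5A3, the chain of type V known from fewer tissues, in mesenteric fat at 34.7 ± 26 FPKM against 30.0 FPKM in subcutaneous fat. COL5A2 was highest in the olfactory bulb at 122 ± 44.2 FPKM, with libraries between 3.96 and 175 FPKM and a median of 136 FPKM. Skin, the next tissue for COL5A2, averaged 70.5 FPKM and was below the olfactory bulb in 11 of 12 animals.

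Among the other fibrillar collagens, COL2A1, the main collagen of cartilage and of the vitreous body, was highest in the retina at 9.3 ± 5.98 FPKM, close to bone marrow at 8.29 FPKM, where 1 library reached 54.1 FPKM and the median was 0.909 FPKM. COL11A1 was highest in the optic nerve head, at 33.8 ± 9.36 FPKM against 18.3 FPKM in the supraoptic nucleus, and was higher in 10 of 12 animals. COL11A2 was highest in the lateral hypothalamus at 45.7 ± 38.5 FPKM, close to the medial globus pallidus at 38.2 FPKM. COL27A1 was highest in aorta, at 79.3 ± 27.1 FPKM against 35.9 FPKM in cerebellum, and higher in 11 of 12 animals. COL24A1 stayed low everywhere, with its highest mean, 2.57 ± 3.53 FPKM, in the retinal pigment epithelium.

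Among the basement membrane collagens, COL4A1 (ENSPANG00000004421) and COL4A2 (ENSPANG00000012522) were both highest in aorta. COL4A2 had 152 to 379 FPKM in the 12 aorta libraries with a median of 232 FPKM, and COL4A1 85.4 to 215 FPKM with a median of 118 FPKM. COL4A3 (ENSPANG00000016691) averaged 32.6 ± 18.4 FPKM in cornea and 29.7 ± 10.1 FPKM in retina, with a paired log2 difference of −0.02 ± 0.30 (SE), so the pair could not be ordered. COL4A4 peaked at only 3.56 ± 1.7 FPKM, in the kidney medulla, close to cornea at 3.39 FPKM. COL4A6 was highest in iris at 28.2 ± 15 FPKM, followed by the thyroid at 19.9 FPKM.

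The hexagonal network collagens, known from the sheet under the corneal endothelium and from growing cartilage, had their highest means in the eye and bone marrow. COL8A1 (ENSPANG00000025905) was highest in the retinal pigment epithelium at 30.3 ± 12.5 FPKM, near the optic nerve head at 25.8 FPKM, and was at 1 FPKM or more in 42 tissues. COL8A2 averaged 75.8 ± 157 FPKM in the 11 iris libraries, but this mean rested on few of them, as the range was 2.14 to 521 FPKM and the median 17.7 FPKM. Cornea, the next tissue, averaged 8.9 ± 8.89 FPKM for COL8A2 and lay below the iris in 9 of 11 animals. COL10A1, a marker of hypertrophic cartilage, reached 1 FPKM in 2 tissues, with its highest mean in bone marrow at 3.63 ± 6.27 FPKM, 2 of whose 12 libraries were listed at 0.

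The beaded filament genes COL6A1 and COL6A2 were aortic in level. COL6A2 (ENSPANG00000024175) ran from 256 to 458 FPKM in aorta with a median of 377 FPKM, and in iris, the next tissue, from 5.08 to 1042 FPKM with a median of 28.2 FPKM, and was higher in aorta in 9 of 11 animals. COL6A1 (ENSPANG00000022692) averaged 283 ± 61.5 FPKM in aorta. COL6A5 was highest in cecum, at 7.33 ± 5.52 FPKM against 3.33 FPKM in bladder, and COL6A6 in skin, at 14.3 ± 13.2 FPKM against 6.22 FPKM in omental fat. COL26A1 was highest in the prefontal cortex at 8.73 ± 4.13 FPKM, and COL28A1 in the stomach fundus at 17.1 ± 8.87 FPKM, close to the libraries labelled adrenal cortex at 16.1 FPKM.

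The epithelial anchors were highest in cornea. COL17A1 (ENSPANG00000020929) averaged 718 ± 292 FPKM in cornea, 5.13 times its 140.0 ± 58.4 FPKM in skin, and was at 1 FPKM or more in 11 tissues. COL7A1 (ENSPANG00000015975) averaged 51.8 ± 23.1 FPKM in cornea, 4.48 times its level of 11.5 FPKM in the supraoptic nucleus. Both were higher in cornea in 12 of 12 animals. Of the other transmembrane collagens, COL25A1 was highest in the mammilliary body at 22.7 ± 20 FPKM, above the retinal pigment epithelium at 15.3 FPKM in 6 of 12 animals. COL13A1 averaged 21.1 ± 47.6 FPKM in the pituitary, where 1 library reached 165 FPKM and the median was 2.02 FPKM, so that iris, with a mean of 16.1 FPKM, was above it in 9 of 11 animals.

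The fibril-associated collagens, which decorate fibrils rather than build them, were spread over many organs. COL21A1 was highest in aorta, at 36.7 ± 16.5 FPKM against 7.38 FPKM in the muscle gastrocnemian, and was higher in 12 of 12 animals. COL16A1 was also highest in aorta at 75.3 ± 20.7 FPKM, but the arcuate nucleus, at 65.8 FPKM, was above it in 6 of 12 animals. COL14A1 was highest in prostate at 86 ± 49.1 FPKM, COL12A1 in the stomach fundus at 32.6 ± 17.3 FPKM, COL9A1 in the retinal pigment epithelium at 46.5 ± 41.7 FPKM and COL9A3 there too at 15.5 ± 12.5 FPKM. The next tissue was close for COL14A1 (bladder, 75.2 FPKM, below prostate in 6 of 12 animals) and COL12A1 (libraries labelled adrenal cortex, 31.0 FPKM, 8 of 12). It was also close for COL9A3 (arcuate nucleus, 13.3 FPKM, 6 of 12). COL22A1 was highest in the arcuate nucleus at 22.2 ± 9.16 FPKM and COL19A1 in the kidney cortex at 2.58 ± 0.948 FPKM. COL20A1 averaged 2.34 ± 4.56 FPKM in the iris, where 1 library reached 15.1 FPKM and the median was 0.532 FPKM, and 2.31 FPKM in the arcuate nucleus, which the iris exceeded in 3 of 11 animals. The multiplexin COL15A1, found just outside basement membranes of muscle and fat, was highest in the depot labelled white adipose tissue, at 123 ± 41.6 FPKM. For 2 of the 38 collagens, COL8A2 and COL17A1, the highest mean was at least 5 times that of the next tissue. This was a share of 5.26% beside 6.15% of the genes with a symbol. Neither was confined to 1 tissue, as COL8A2 was at 1 FPKM or more in 15 tissues and COL17A1 in 11. The iris mean of COL8A2 rested on few libraries.

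Most genes whose chains sit in the same protein were correlated over tissues, as were some whose chains do not. Over the 64 tissue means of log2(FPKM + 0.5), which share libraries, depth and library score, Pearson's r was 0.96 for COL6A1 and COL6A2, 0.94 for COL4A1 and COL4A2, 0.92 for COL4A3 and COL4A4, and 0.91 for COL1A1 and COL1A2. It was 0.83 for COL9A1 and COL9A3, 0.79 for COL11A1 and COL11A2, 0.72 for COL5A1 and COL5A2 and 0.18 for COL8A1 and COL8A2, and −0.22 for COL4A1 and COL4A3, which belong to different type IV networks. For COL1A1 and COL4A1, chains of different proteins, it was 0.80. The pairs COL4A1 and COL4A2, COL4A3 and COL4A4, and COL6A1 and COL6A2 are neighbours in the genome by RefSeq, as are COL6A5 and COL6A6, with r of 0.32, and COL9A1 and COL19A1, with r of 0.11. These are descriptions over tissues and carry no test.

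The ratio within a pair differed between tissues, and for some pairs it also varied widely within a tissue. The mean level of COL1A1 was below that of COL1A2 in all 42 tissues where both reached 1 FPKM, from 0.00931 times it in the optic nerve head to 0.552 times in aorta. COL4A1 was above COL4A2 in 33 of 56 such tissues and COL6A1 above COL6A2 in 40 of 46. Aorta was on the low side for both, with a geometric mean ratio over libraries of 0.55 for COL4A1 to COL4A2 (range 0.369 to 0.643) and of 0.762 for COL6A1 to COL6A2 (range 0.479 to 1.08). In skin the same ratios were 2.19 (range 1.43 to 3.01) and 1.51 (range 1.23 to 1.91), so that aorta and skin libraries did not overlap in either. Whether the ratio spread less over libraries than either gene depended on the pair. In aorta, skin, cornea and the 6 depots, 9 tissues in all, the SD of the log2 ratio was below the SDs of both genes in 9 for COL4A1 and COL4A2, 9 for COL5A1 and COL5A2 and 8 for COL6A1 and COL6A2. It was so in 4 for COL4A3 and COL4A4, 1 for COL1A1 and COL1A2 and 0 for COL8A1 and COL8A2. The SD for COL6A1 to COL6A2 in skin was 0.17, against 0.79 and 0.92 for the log2 levels of the genes. For COL4A1 and COL4A2 in perirenal fat it was 0.27, against 0.87 and 0.97. For COL1A1 to COL1A2 in subcutaneous fat it was 1.60, against 2.29 and 1.00, as the ratio ran from 0.0126 to 0.492. The annotated lengths implied by the FPKM values were 3511 bases for COL1A1 and 7160 bases for COL1A2, 4869 and 5186 bases for COL4A1 and COL4A2, and 3206 and 5556 bases for COL6A1 and COL6A2, and a ratio of FPKM between genes moves with these lengths.

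**Figure D2:**
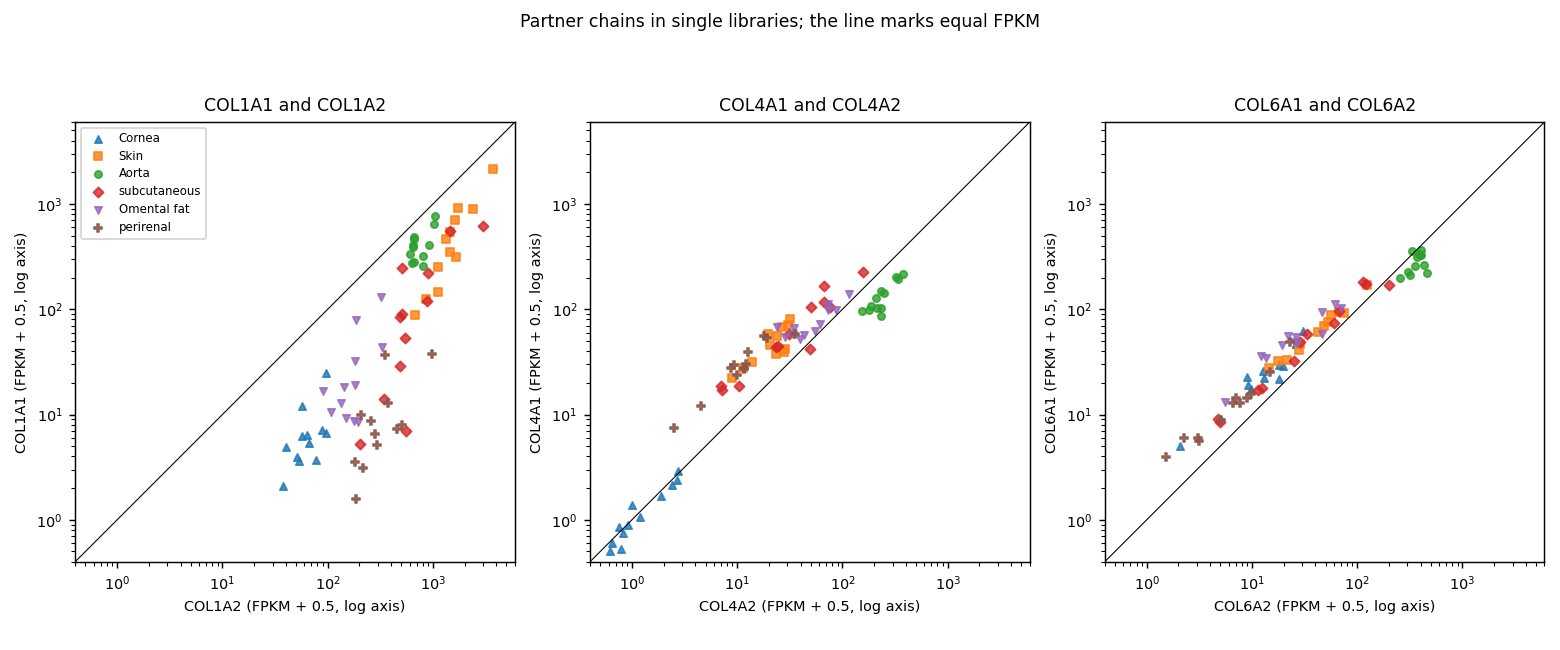
FPKM of 3 pairs of chain partners in single libraries of cornea, skin, aorta and the subcutaneous, omental and perirenal fat depots, both axes on a log scale, with a line at equal FPKM. The COL1A1 and COL1A2 points lay below equality in every library shown, and aorta points sat on the other side of the COL4A1 and COL4A2 line from skin points.

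The genes most like COL1A1 over the 64 tissue means, among 16216 genes compared, were COL1A2 (Pearson's r 0.91), MMP2 (0.90), COL6A1 (0.88), COL6A2 (0.88) and HTRA3 (0.87). For COL4A1 they were COL4A2 (0.94), PXDN (0.91), HTRA3 (0.89), LOXL2 (0.88) and ADAMTS9 (0.87). For COL17A1 they were SERPINB5 (0.87), AIM1L (0.87), EVPL (0.87), PKP1 (0.86) and SFN (0.86).

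The chains of types I and V, COL6A1 and COL6A2, and the common type IV chains COL4A1 and COL4A2 were higher in the periphery, and those of types XI and IX were higher in the brain, as was COL16A1. Values were averaged within each animal over the 35 peripheral tissues and over the 22 brain regions. COL1A2 had per-animal means of 144 to 382 FPKM in the periphery, with a median of 182 FPKM, and of 6.00 to 32.4 FPKM in the brain, with a median of 16.1 FPKM. COL11A2 had 0.0648 to 0.689 FPKM in the periphery, with a median of 0.244 FPKM, and 6.73 to 29.9 FPKM in the brain, with a median of 14.6 FPKM. The ranges of the classes did not overlap for either gene.

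Of the 31 collagens tested, 18 were higher and 12 lower in the periphery (limma on within-animal log2 differences, Benjamini-Hochberg adjusted p under 0.05 over all genes). Among all genes tested, 50.3% were called higher and 41.4% lower, so the shares for collagens lie near the background. The median log2 difference was 0.62 for the collagens and 0.13 for all genes. Where 1 class or the other averaged at least 5 FPKM, the largest were a log2 difference of 4.30 ± 0.14 (SE) for COL1A2 (adjusted p = 5.5e-15, limma), 3.15 ± 0.07 for COL14A1, 3.13 ± 0.21 for COL1A1, 2.73 ± 0.07 for COL4A1 and 2.69 ± 0.15 for COL6A1. In the other direction they were −3.78 ± 0.13 for COL11A2, −2.95 ± 0.07 for COL11A1, −2.88 ± 0.09 for COL9A1, −1.66 ± 0.09 for COL16A1 and −0.47 ± 0.07 for COL27A1. COL13A1 was not called, at −0.04 ± 0.06. Among the genes that serve collagen, 10 of 11 collagenases, inhibitors and uptake genes were higher in the periphery and 0 lower, and 9 of 13 hydroxylation genes were higher and 3 lower.

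Cornea and skin are both epithelium on a collagenous stroma, and they differed in most collagens. Cornea had more of the epithelial anchors COL17A1 and COL7A1 and of the type IV chains COL4A3 and COL4A4, and less of the type I chains and of COL4A1 and COL4A2. COL4A6 was lower too, at 4.41 FPKM in cornea and 8.03 FPKM in skin (lower in 12 of 12 animals). COL17A1 had 366 to 1189 FPKM in the 12 corneas, with a median of 720.4 FPKM, and 28.3 to 230.3 FPKM in the 12 skins, with a median of 135 FPKM. COL1A1 had 1.58 to 24.1 FPKM in cornea, with a median of 5.33 FPKM, and 88 to 2171 FPKM in skin, with a median of 409 FPKM. The groups did not overlap for either gene. The cornea libraries held the corneal epithelium markers at a median of 6648 FPKM and the keratocyte markers at 309 FPKM, and the skin libraries the epidermis markers at 4176 FPKM and the corneal epithelium markers at 0.0613 FPKM.

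Of 27 collagens tested, 7 were higher in cornea and 19 lower, beside 44.8% and 41.6% of all genes tested. The median log2 difference was −1.38 for the collagens and 0.05 for all genes. COL4A3 averaged 32.6 FPKM in cornea and 0.0947 FPKM in skin, a log2 difference of 5.59 ± 0.24 (SE). COL8A2, a sheet-forming collagen, averaged 8.9 and 0.538 FPKM (2.66 ± 0.33), COL8A1 14.1 and 1.82 FPKM (2.48 ± 0.24), COL17A1 718 and 140.0 FPKM (2.40 ± 0.18, adjusted p = 9.84e-09 by limma) and COL7A1 51.8 and 11.2 FPKM (2.22 ± 0.13). Each was higher in cornea in 12 of 12 animals. COL4A4, the partner of COL4A3, was higher too (2.60 ± 0.22), with a ratio of COL4A3 to COL4A4 between 6.07 and 11.1 over the 12 corneas.

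Among the 19 that were lower in cornea, COL14A1 averaged 0.792 FPKM in cornea and 70.3 FPKM in skin (−6.08 ± 0.29, adjusted p = 4.94e-11 by limma), COL1A1 6.74 and 583 FPKM (−6.08 ± 0.25, adjusted p = 1.46e-11 by limma), COL4A1 0.81 and 48 FPKM (−5.35 ± 0.29), COL15A1 0.713 and 36.4 FPKM (−5.15 ± 0.27) and COL1A2 64.9 and 1596 FPKM (−4.53 ± 0.16). COL6A6 was listed at 0 in all 12 corneas and ran from 4.52 to 53.7 FPKM in skin. COL12A1 was the single collagen with no call, at −0.03 ± 0.25 and higher in 7 of 12 animals. The genes around collagen moved in the same mix, as 2 of 11 proteoglycan and matrix genes were higher in cornea and 8 lower. KERA, the keratan sulfate proteoglycan of the cornea, averaged 281 FPKM in cornea and 0.188 FPKM in skin, ASPN 0.607 and 82.1 FPKM, and FN1 7.41 and 133 FPKM. The collagen chaperone SERPINH1 averaged 8.04 and 64.6 FPKM, and MMP2 4.06 and 143 FPKM, as 7 of 8 collagenases, inhibitors and uptake genes were lower in cornea and 1 higher. DDR1, an epithelial collagen receptor, averaged 191 FPKM in cornea and 28.6 FPKM in skin.

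Aorta, an elastic artery whose wall is smooth muscle and matrix, exceeded the heart in most collagens. COL1A1 had 259.7 to 762 FPKM in the 12 aortas, with a median of 397 FPKM, and 0.0994 to 37.9 FPKM in the 12 hearts, with a median of 1.54 FPKM. COL6A2 had 256 to 458 FPKM in aorta and 0.335 to 22.7 FPKM in heart. Neither gene overlapped between the tissues. The aorta libraries held smooth muscle markers at a median of 2348 FPKM and cardiomyocyte markers at 0.521 FPKM.

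Of 23 collagens tested, 19 were higher in aorta and 2 lower, beside 52.6% and 29.5% of all genes tested, and the median log2 difference was 3.42 for the collagens and 0.55 for all genes. The largest were 7.09 ± 0.53 (SE) for COL1A1 (adjusted p = 9.06e-09, limma), 6.48 ± 0.42 for COL6A2, 5.78 ± 0.29 for COL16A1, which averaged 75.3 FPKM in aorta and 1.17 FPKM in heart, 5.43 ± 0.44 for COL6A1 and 4.88 ± 0.17 for COL27A1, which averaged 79.3 and 2.18 FPKM. COL4A3 was lower in aorta, with means of 9.72 FPKM in aorta and 14.1 FPKM in heart and a log2 difference of −0.65 ± 0.28 (adjusted p = 0.0412, limma). It was lower in 10 of 12 animals, and its call was lost in 10 of 18 alternatives, with adjusted p between 0.0105 and 0.0933. COL9A1 was the other, at 0.224 FPKM in aorta and 1.31 FPKM in heart (−1.14 ± 0.20). COL8A1 (−0.42 ± 0.30) and COL12A1 (−0.33 ± 0.17) were not called. All 7 collagenases, inhibitors and uptake genes tested were higher in aorta, among them MRC2, an uptake receptor for collagen fragments, at 57.5 FPKM in aorta and 1.69 FPKM in heart, and MMP14 at 82.7 and 6.44 FPKM. Of 10 cross-linking and processing genes 8 were higher and 2 lower, LOXL1 averaging 72.4 and 1.31 FPKM and LOX 15.9 and 0.264 FPKM. FMOD, a proteoglycan that binds fibrils, averaged 269.5 and 2.07 FPKM.

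Skin differed from subcutaneous fat most in COL17A1, the hemidesmosome collagen. COL17A1 had 28.3 to 230.3 FPKM in the 12 skins and 0.0605 to 1.75 FPKM in the 12 subcutaneous fat libraries, and COL7A1 1.75 to 21.2 FPKM in skin against a mean of 1.18 FPKM in fat. COL15A1 ran the other way, from 22.9 to 77.7 FPKM in skin, with a mean of 36.4 FPKM, against a mean of 76.7 FPKM in subcutaneous fat. Of 23 collagens tested, 12 were higher in skin and 3 lower, beside 43.8% and 25.4% of all genes tested. The median log2 difference was 0.88 for the collagens and 0.20 for all genes.

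The log2 difference was 7.35 ± 0.20 (SE) for COL17A1, 3.30 ± 0.17 for COL4A6, which averaged 8.03 FPKM in skin and 0.395 FPKM in fat, 2.89 ± 0.19 for COL7A1, 2.50 ± 0.31 for COL1A1 and 2.27 ± 0.23 for COL12A1. COL5A3 averaged 9.29 FPKM in skin and 30.0 FPKM in fat (−1.35 ± 0.29, adjusted p = 0.000827 by limma, lower in 11 of 12 animals), and COL15A1 was lower in 12 of 12 animals (−1.01 ± 0.15). COL8A1 was lower too, at −0.54 ± 0.15. The remaining 8 were not called, among them COL5A2 at 0.10 ± 0.18 and the pairs COL4A1 and COL4A2, and COL6A1 and COL6A2. The subcutaneous libraries held skeletal muscle markers at between 0.840 and 6382 FPKM and 2 of them, at ZT2 and ZT4, epidermis markers, and the part of these in the differences was not tested.

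Between fat depots, subcutaneous fat had more of the chains of types I and V and of COL6A1 and COL6A2 than perirenal fat. COL1A1 had 4.78 to 612 FPKM in the 12 subcutaneous libraries, with a median of 87 FPKM, and 1.08 to 37.2 FPKM in the 12 perirenal libraries, with a median of 7.11 FPKM. COL6A2 had 4.24 to 199 FPKM in subcutaneous fat, with a median of 30.3 FPKM, and 1.03 to 22.6 FPKM in perirenal fat, with a median of 6.29 FPKM. The depots overlapped for both. Fibroblast markers were at a median of 135 FPKM in subcutaneous and 119 FPKM in perirenal fat, and adipocyte markers at 600 and 459 FPKM. Endothelium markers were at 41.0 and 15.5 FPKM, smooth muscle markers at 21.6 and 13.4 FPKM and skeletal muscle markers at 81.3 and 0 FPKM. The part of these markers in the differences was not tested.

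Of 19 collagens tested, 12 were higher in subcutaneous fat and 2 lower, beside 32.4% and 17.7% of all genes tested, with a median log2 difference of 0.84 for the collagens and 0.05 for all genes. The differences were 3.16 ± 0.50 (SE) for COL1A1 (adjusted p = 0.000261, limma), 2.40 ± 0.37 for COL6A2 (adjusted p = 0.000206, limma), 2.01 ± 0.32 for COL6A1, 1.59 ± 0.31 for COL4A2 and 1.47 ± 0.33 for COL5A3. COL12A1 averaged 3.15 FPKM in subcutaneous and 5.85 FPKM in perirenal fat (−0.95 ± 0.26, adjusted p = 0.00815 by limma) and COL8A1 was lower as well (−0.58 ± 0.19). COL14A1, COL15A1, COL21A1, COL27A1 and COL6A6 were not called. Without the animals with a doubted library, 6 animals were left and 3 of 18 collagens were higher and 0 lower, beside 14.6% and 1.33% of all genes. MRC2 averaged 22.3 and 3.45 FPKM and MMP2 85.3 and 21.8 FPKM, as 6 of 7 collagenases, inhibitors and uptake genes were higher in subcutaneous fat.

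**Figure D3:**
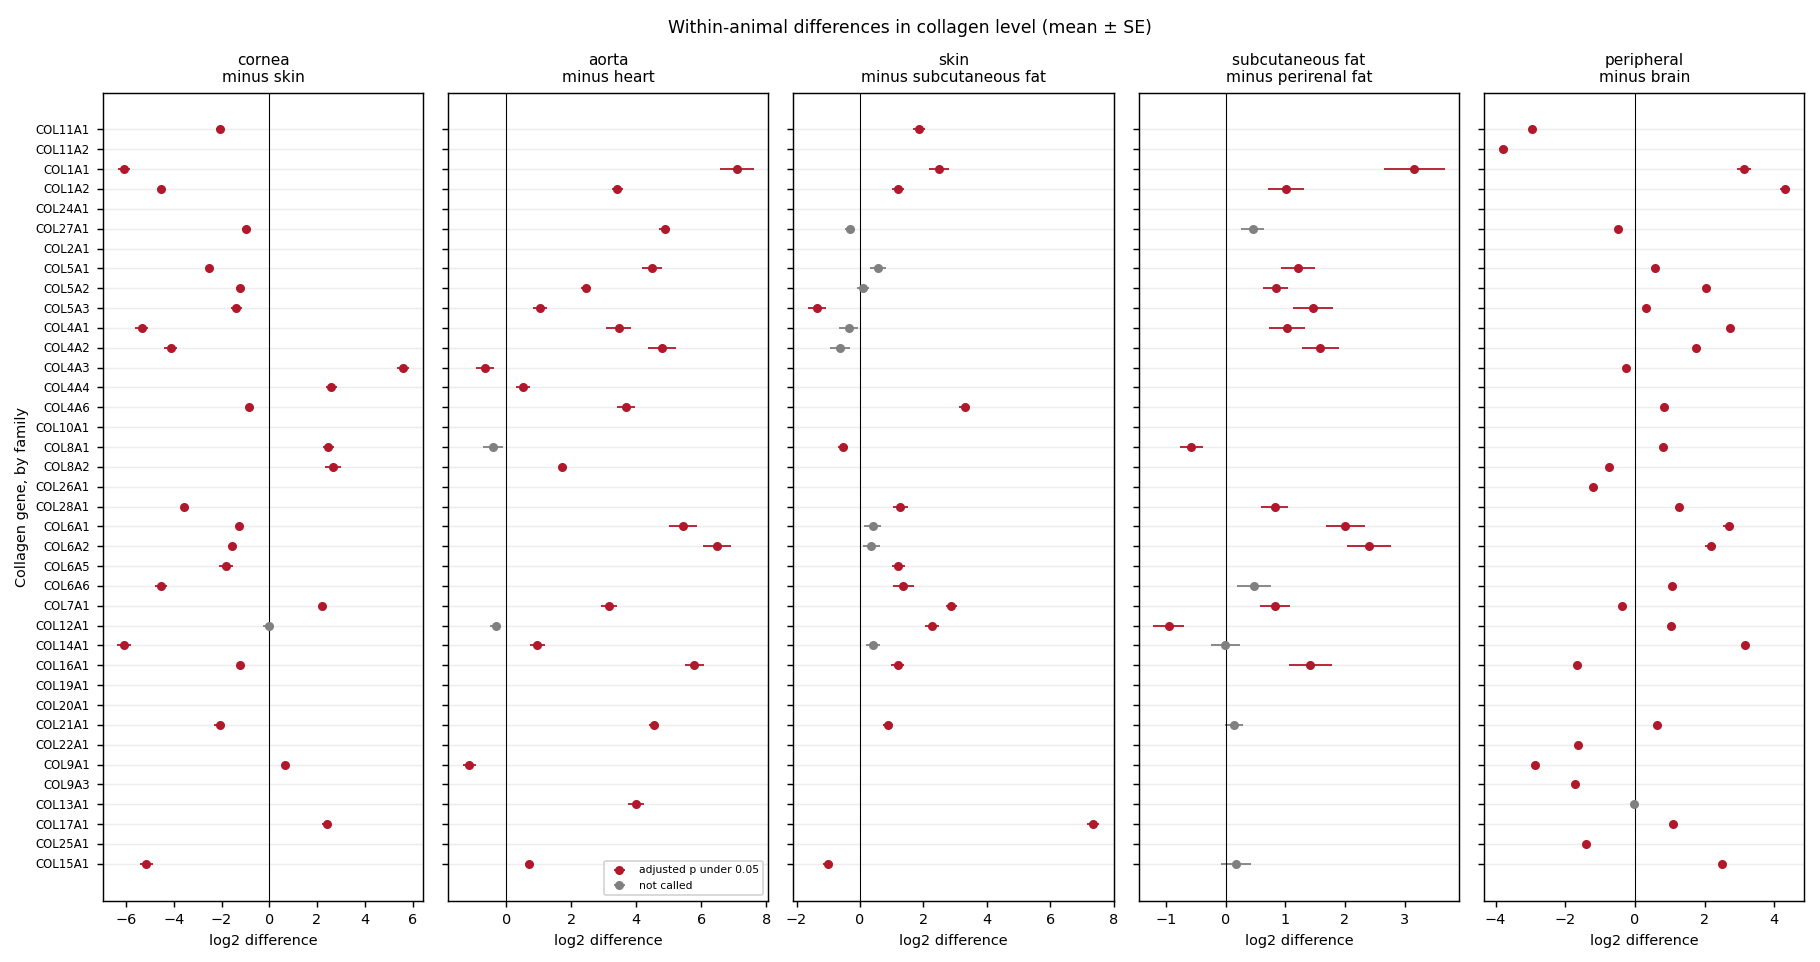
Log2 difference (± SE) of each tested collagen in the 5 paired contrasts, with genes down the page and red points for an adjusted p under 0.05. COL1A1 lay far to the left in cornea minus skin, at −6.08, and far to the right in aorta minus heart, at 7.09.

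The second question was whether collagens follow a 24 h rhythm. In aorta none passed the test. COL1A2, the leading collagen there, and COL6A2 ran at 909, 654, 645, 656, 603, 1026, 809, 659, 630.0, 799.7, 666 and 1048 FPKM and at 318, 372, 402, 305, 353, 395, 256, 406, 433, 458, 382 and 331 FPKM from ZT0 to ZT22. Neither gene separated the light from the dark phase. Of 22 collagens tested in aorta, 0 were called rhythmic (limma, adjusted p under 0.05), beside 0% of all genes, with 3 collagens at an unadjusted p under 0.05, beside 9.46% of all genes, and 0 called by limma voom on the recovered reads. The median log2 amplitude was 0.23 for the collagens and 0.17 for all genes.

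The smallest p in aorta was that of COL8A1, a short-chain collagen of vessel walls. It had 10.9, 8.48, 4.79, 14.9, 10.9 and 9.1 FPKM from ZT0 to ZT10 and 8.02, 2.19, 2.99, 2.36, 5.09 and 6.74 FPKM from ZT12 to ZT22. The low values stood at ZT14, ZT16 and ZT18, and the phases overlapped. Its log2 amplitude was 0.85 ± 0.22 (SE), a 3.25-fold fitted peak over trough with the peak at ZT4.97 (adjusted p = 0.287, limma), and it was 0.86 with the library score as covariate (adjusted p = 0.318), where 0 collagens and 0.0312% of all genes were called. Without the ZT4 library, whose pattern of individual differences matched the ZT10 animal, 1 collagen, COL8A1, was called, at an adjusted p of 0.0375, beside 1% of all genes. Its adjusted p ran from 0.0375 to 0.564 over the alternatives.

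In skin no collagen passed the test, although several genes had their libraries in the order of the light and dark phases. COL1A1 had 926, 710.2, 2171, 543, 465 and 901 FPKM from ZT0 to ZT10 and 254, 353, 126, 313, 146 and 88 FPKM from ZT12 to ZT22. The 6 light-phase libraries all lay above the 6 dark-phase ones. COL16A1 had 21.5, 23.9, 48.7, 24, 18 and 28.6 FPKM in the light phase and 13.8, 13.2, 10.7, 13.7, 10.9 and 6.64 FPKM in the dark phase, again without overlap. COL1A2 ran from 1323 to 3722 FPKM in the light phase and from 674 to 1656 FPKM in the dark phase, which overlapped.

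Of 23 collagens tested in skin 0 were called by limma, beside 0.0615% of all genes, with 7 at an unadjusted p under 0.05, beside 21.4% of all genes, and 0 by limma voom. COL16A1 had the smallest p, with a log2 amplitude of 0.78 ± 0.19 (SE), a 2.95-fold range and a peak at ZT5.75 (adjusted p = 0.145, limma). COL1A1 had an amplitude of 1.34 ± 0.36, a 6.40-fold range and a peak at ZT5.5 (adjusted p = 0.152, limma). The fitted peak fell in the light phase for 19 of the 23, beside 56.1% of all genes. It did so for 14, beside 47.5% of all genes, when the library score was a covariate. With the library score as covariate the amplitudes were 0.25 for COL16A1 and 0.12 for COL1A1, and 0 collagens and 0.0154% of all genes were called. Fibroblast markers were at 70.1 to 188 FPKM in the light-phase skins and at 76.3 to 116 FPKM in the dark-phase ones, and the ZT22 skin, lowest in COL1A1, COL1A2 and COL17A1, had epidermis markers at 555 FPKM, against 3060.5 to 8485 FPKM in the others.

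In cornea the epithelial anchors had a daily rhythm in the fit on time alone. COL17A1 had 1129, 1189, 865, 808, 906 and 941 FPKM from ZT0 to ZT10 and 485, 450.4, 366, 633, 465 and 385 FPKM from ZT12 to ZT22, so that every light-phase cornea was above every dark-phase one. COL7A1 had 54.7, 65.7, 96.5, 68.2, 52.9 and 64.5 FPKM in the light phase and 65.4, 42.5, 30.8, 46.7, 17.1 and 16.1 FPKM in the dark phase, where the ZT12 library overlapped with the light phase. COL4A3 showed no such order, with 57.2 and 58.5 FPKM at ZT8 and ZT6, 57.1 FPKM at ZT20, and 12.5 and 12.2 FPKM at ZT10 and ZT12. COL1A2, with 37.4 to 96.7 FPKM, and COL5A2, with 13.2 to 43.7 FPKM, completed the 5 most abundant collagens of the cornea.

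These were the 2 of 18 collagens called in cornea, beside 19.2% of all genes, so the share of collagens was not above the background, with 7 at an unadjusted p under 0.05, beside 40% of all genes. COL17A1 had a log2 amplitude of 0.65 ± 0.16 (SE), a 2.45-fold range and a peak at ZT4.54 (adjusted p = 0.0392, limma), and COL7A1 0.81 ± 0.21, 3.06-fold and ZT7.13 (adjusted p = 0.0442, limma). Voom called 2 as well. COL8A2 had a larger amplitude, 1.29, but was not called (adjusted p = 0.0782, limma). With the library score as covariate, the amplitude was 0.36 ± 0.12 for COL17A1 (adjusted p = 0.308, limma) and 0.09 for COL7A1 (adjusted p = 0.895, limma), where 0.419% of all genes and no collagen were called. The count was 0 without any 1 of the libraries at ZT2, ZT4, ZT6, ZT8, ZT10, ZT12, ZT14, ZT16 or ZT20 and 5 without that at ZT22. It was also 0 without both the ZT12 and ZT14 corneas, which matched each other's animal, beside 0.126% of all genes. For the fits without a single cornea the share of all genes is not given here. The corneal epithelium markers moved with these genes, at 7180.3 to 10659 FPKM in the light-phase corneas and 3634 to 6115 FPKM in the dark-phase ones, and their part in the result was not tested.

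**Figure D4:**
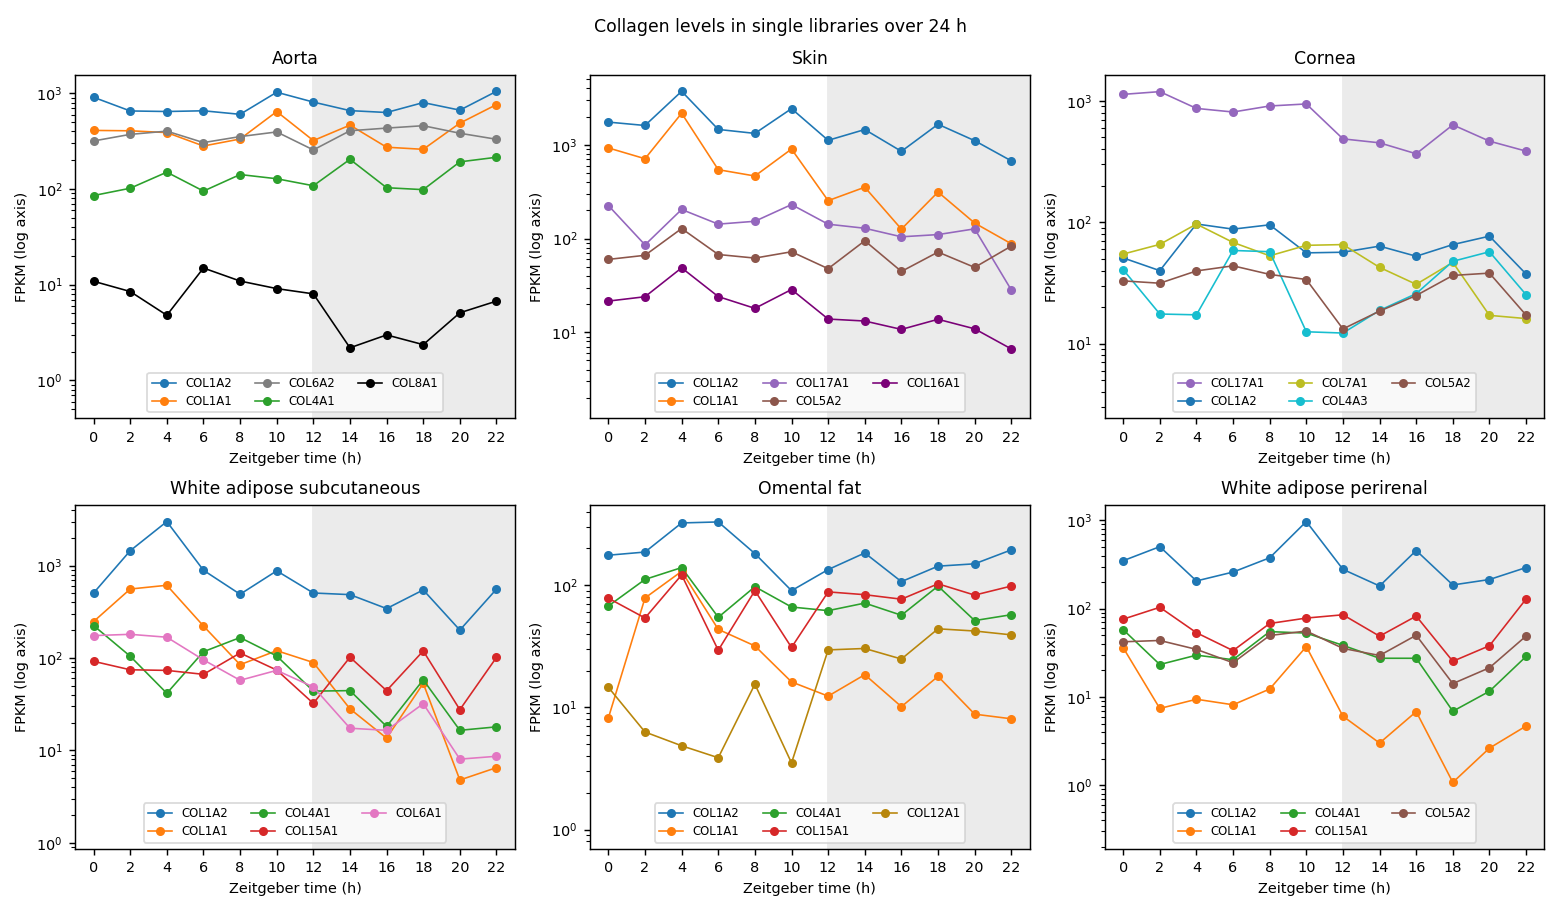
FPKM (log scale) of 5 collagens in each library of aorta, skin, cornea and 3 fat depots against collection time, with the dark phase shaded. COL17A1 in cornea ran between 808 and 1189 FPKM through the light phase and between 366 and 633 FPKM in the dark phase, while COL1A2 in aorta stayed between 603 and 1048 FPKM.

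Fat was sampled as 6 depots of the same animals, which were first fitted one by one. In omental fat 7 of 20 collagens were called, beside 37.7% of all genes. In the other depots the counts were 0 of 20 in mesenteric (0.0153% of all genes), 0 of 18 in pericardial (0%), 0 of 18 in perirenal (0.017%), 0 of 19 in subcutaneous (0.0565%) and 0 of 16 in the depot labelled white adipose tissue (0.0433%), by limma. Without the doubted libraries the counts were 2 of 20 in mesenteric, beside 5.08% of all genes, and 2 of 18 in pericardial fat, beside 20.7%. At an unadjusted p under 0.05 the 5 depots with no call had 7, 2, 0, 13 and 11 collagens in the order above, beside 7.64%, 18.7%, 7.36%, 18.6% and 31.8% of all genes. Omental fat had 9 collagens at that level, beside 52.9% of all genes. Voom called 0 in each of mesenteric, pericardial, perirenal, subcutaneous and white adipose tissue and 6 in omental fat. With the library score as covariate 0 collagens were called in each depot, beside 0.0319% of all genes in omental, 0.0381% in mesenteric, 0% in pericardial, 0.0341% in perirenal, 0% in subcutaneous and 0.0692% in white adipose tissue.

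Omental fat libraries fell into an early and a late set. COL12A1 had 14.6, 6.29, 4.85 and 3.87 FPKM from ZT0 to ZT6, 15.5 and 3.51 FPKM at ZT8 and ZT10, and 29.5, 30.3, 24.9, 43.9, 42.2 and 39.2 FPKM from ZT12 to ZT22. COL5A3 ran against it, with 12.4, 58, 97.9 and 14.7 FPKM from ZT0 to ZT6, 11.4 and 14.5 FPKM at ZT8 and ZT10 and 2.58 to 4.71 FPKM afterwards. For both genes the dark-phase libraries did not overlap with the light-phase ones. COL4A6 was below 0.5 FPKM in the 4 libraries from ZT0 to ZT6 and between 2.04 and 7.58 FPKM in the 8 others. COL28A1 had 0.632 to 1.81 FPKM in those 4 and 2.78 to 26.6 FPKM in the others.

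The log2 amplitudes in omental fat were 1.55 ± 0.28 (SE) for COL12A1 (8.52-fold, peak at ZT17.8, adjusted p = 0.0162), 1.84 ± 0.34 for COL5A3 (12.9-fold, ZT4.57, adjusted p = 0.0162), 1.56 ± 0.30 for COL4A6 (8.69-fold, ZT14.8, adjusted p = 0.0163), 1.63 ± 0.43 for COL28A1 (9.64-fold, ZT16.0, adjusted p = 0.0329) and 1.26 ± 0.35 for COL1A1 (5.73-fold, ZT5.34, adjusted p = 0.0396), all by limma. COL6A6 and COL26A1 were also called. The libraries also differed in their cell markers, with the break between ZT6 and ZT8, as for COL4A6 and COL28A1. Smooth muscle markers were at 4.70 to 30.1 FPKM from ZT0 to ZT6 and at 723 to 4655 FPKM from ZT8 to ZT22, stomach markers at 0 to 1.40 FPKM and at 13.2 to 13041 FPKM, and adipocyte markers at 379 to 811 FPKM and at 20.2 to 338 FPKM. Over all tissues COL28A1 averaged 17.1 FPKM in the stomach fundus and 16.1 FPKM in the libraries labelled adrenal cortex. COL12A1 averaged 32.6 and 31.0 FPKM there, and these were the highest means of both genes. COL5A3 was highest in mesenteric fat and COL4A6 in iris. The part of the markers in the omental courses was not tested. Doubt over markers was judged against the median of the label, which was 2505 FPKM for smooth muscle in omental fat. The libraries of ZT0 to ZT6, the ones with the highest adipocyte markers, therefore counted as doubted. Without the doubted libraries none of the collagens was called in omental fat, beside 0% of all genes. That fit held no library from ZT0 to ZT6, so it cannot decide on a rhythm over the whole day. Over the 6 depots the 7 calls became 3 without the libraries of ZT2, ZT4, ZT6, ZT12, ZT14 or ZT20. The share of all genes in those fits is not given here.

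Subcutaneous fat had the highest median amplitude of the depots fitted singly, 0.98 on the log2 scale over its collagens, with none called. COL1A1 had 248, 558, 612, 222, 84.6 and 120.0 FPKM from ZT0 to ZT10 and 89.3, 28.1, 13.6, 53.1, 4.78 and 6.51 FPKM from ZT12 to ZT22. COL5A1 had 45.8, 55.7, 31.4, 33.5, 32.6 and 15 FPKM in the light phase and 15.2, 9.87, 4.85, 9.95, 3.73 and 4.58 FPKM in the dark phase. In both genes the highest library came at ZT2 or ZT4 and the lowest at ZT20, with a slight overlap of the phases at ZT12. COL1A1 had a log2 amplitude of 2.44 ± 0.54 (SE), a 29.3-fold range with its peak at ZT5.39 (adjusted p = 0.208, limma), and COL5A1 1.46 ± 0.29, 7.61-fold, ZT5.09 (adjusted p = 0.18, limma). COL1A2, which makes the other chain of type I, ran from 489.7 to 2995 FPKM in the light phase and from 200.4 to 557 FPKM in the dark phase. The ZT4 library, highest in COL1A1 and COL1A2, held skeletal muscle markers at 6382 FPKM.

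In the remaining depots the smallest p belonged to COL16A1 in mesenteric fat (log2 amplitude 1.46 ± 0.25, peak ZT2.62, adjusted p = 0.391), COL7A1 in pericardial fat (1.02 ± 0.26, ZT7.56, adjusted p = 0.115), COL4A1 in perirenal fat (0.74 ± 0.27, ZT7.24, adjusted p = 0.67) and COL5A1 in the depot labelled white adipose tissue (1.05 ± 0.21, ZT23.2, adjusted p = 0.137), all by limma. Mesenteric COL1A1 was at 269.8, 374 and 289 FPKM at ZT0, ZT2 and ZT4 and at 17.6 to 79.8 FPKM in the 9 later libraries. The mesenteric ZT2 library is among the 8 of the series whose names carry the suffix approx, which the labels do not explain. In pericardial fat COL1A2 had 656, 942, 240.2 and 309 FPKM at ZT2, ZT10, ZT16 and ZT22 and 14.1 to 84.6 FPKM in the other 8. Those 4 libraries stood apart from the rest in adipocyte markers too, at 515 to 1210 FPKM against 2.16 to 76.9 FPKM. Pericardial libraries also held leukocyte markers at a median of 104 FPKM (range 3.29 to 118), against medians of 1.14 to 4.07 FPKM in the other depots. Their epidermis markers had a median of 28.3 FPKM (range 0.416 to 79.3). The part of these markers in the pericardial fit and in the mean over depots was not tested.

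Averaged over the 6 depots within each animal, 7 of 19 collagens were called, beside 19.8% of all genes. They were COL16A1 (log2 amplitude 0.90 ± 0.15 (SE), 3.50-fold, peak ZT4.28, adjusted p = 0.0261), COL1A1 (1.40 ± 0.27, 6.98-fold, ZT4.22, adjusted p = 0.0261), COL6A2 (1.11 ± 0.22, 4.65-fold, ZT5.16, adjusted p = 0.0263), COL5A1 (0.65 ± 0.13, 2.45-fold, ZT2.58, adjusted p = 0.0264), COL6A1 (0.89 ± 0.19, 3.42-fold, ZT4.71, adjusted p = 0.0271), COL4A2 and COL7A1, by limma. The set thus held fibrillar, fibril-associated, beaded filament, basement membrane and anchoring collagens, and the 5 peaks given lay between ZT2.58 and ZT5.16. The count was 0 without any 1 of ZT4, ZT6, ZT14 or ZT20, 1 without ZT16, 4 without ZT2 and 7 without the doubted libraries, where 14.6% of all genes were called. For the single times left out, the share of all genes is not given here. The count was 0 with the library score as covariate, beside 0.0715% of all genes. At an unadjusted p under 0.05 it was 10, beside 39.9% of all genes. The genes that serve collagen were counted by list. Calls went to 3 of 11 hydroxylation genes (PLOD3, P3H1 and PLOD1) and 3 of 7 folding genes (FKBP14, FKBP10 and PPIB). Of 9 cross-linking and processing genes 3 were called (BMP1, ADAMTS2 and PCOLCE). Of 7 collagenases, inhibitors and uptake genes 3 were called (MRC2, TIMP1 and TIMP3). Of 10 proteoglycan and matrix genes 2 were called, and of 7 collagen receptors 1. In cornea 3 of 12 hydroxylation genes were called, PLOD3 among them with an amplitude of 0.77 ± 0.14, beside 19.2% of all genes. The other lists in cornea had 1 of 7 folding, 0 of 5 cross-linking and processing and 1 of 10 proteoglycan and matrix genes. They also had 0 of 8 collagenases, inhibitors and uptake genes and 2 of 4 collagen receptors. In aorta and skin 0 genes of all these lists were called.

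Averaged over the 63 tissues with 12 libraries, 10 of 18 collagens were called, beside 63.1% of all genes. COL6A2 had a log2 amplitude of 0.67 ± 0.10 (SE), 2.55-fold, with its peak at ZT5.82 (adjusted p = 0.000462, limma), COL16A1 0.51 ± 0.08 (ZT4.93, adjusted p = 0.000701), COL1A1 0.61 ± 0.10 (ZT5.18, adjusted p = 0.000836) and COL4A1 0.38 ± 0.06 (ZT6.5, adjusted p = 0.001). Given the library score as covariate, 0 collagens and 0.174% of all genes were called, and at an unadjusted p under 0.05 without it 11 collagens and 67.3% of all genes. Fitted tissue by tissue, collagens were called in 18 of 64 tissues and in 64 of 1175 pairs of a collagen and a tissue, 5.45%, beside 6.56% of the pairs of all genes. The thyroid had 9 of 17 (44.2% of all genes), the heart 8 of 19 (42.4%), the stomach fundus 6 of 20 (34.4%) and the ileum 5 of 13 (27.5%). In the heart the count was 0 with the score as covariate (0.0628% of all genes) and 0 without the ZT4 library, which held adipocyte markers at 22.7 FPKM. By gene, COL6A2 was called in 10 of 48 tissues, COL16A1 in 8 of 58, COL6A1 in 7 of 49 and COL4A2 in 6 of 57, but COL1A2 in 1 of 56. With the score as covariate 1 pair remained, COL5A2 in the axillary lymphonodes, 0.0851% of the collagen pairs beside 0.198% of all.

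**Figure D5:**
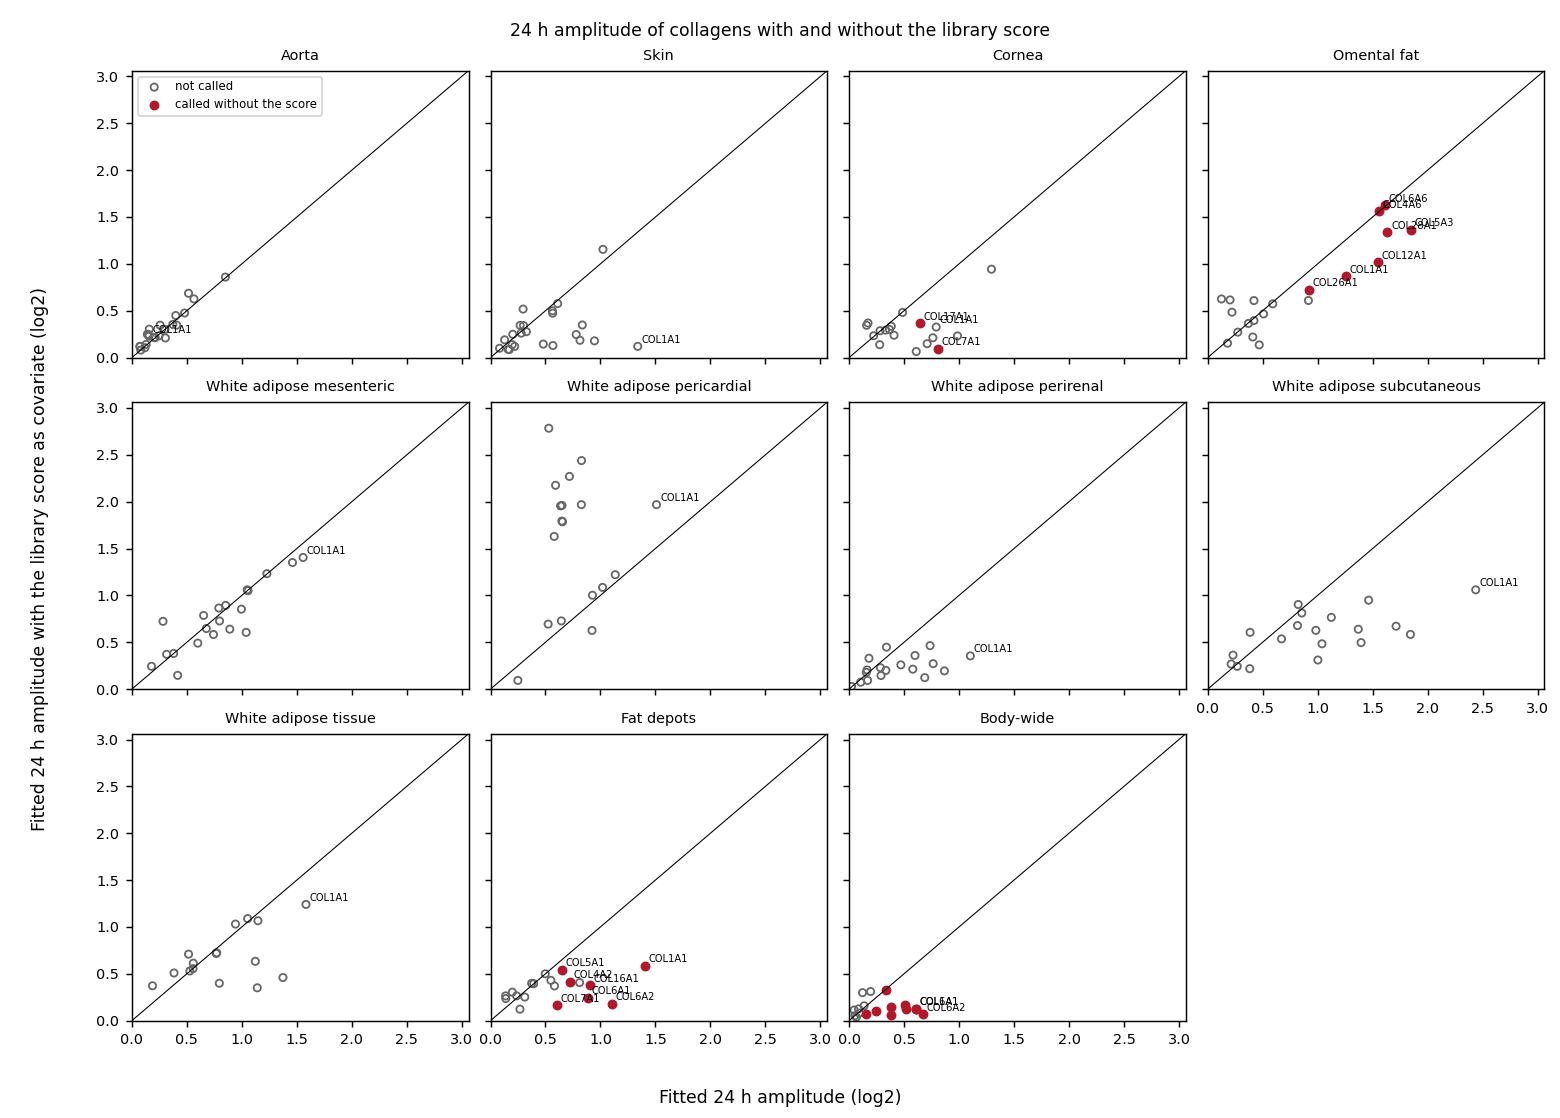
Log2 amplitude of each collagen in the 24 h fit (x axis) and in the same fit with the library score as covariate (y axis), in aorta, skin, cornea, the 6 fat depots, their mean and the body-wide mean. Most skin, subcutaneous and body-wide points lay below the line of equality, as COL1A1 in skin with 1.34 and 0.12, whereas COL8A1 in aorta stayed on it, with 0.85 and 0.86.

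The difference of rhythm between paired tissues was tested as a rhythm of the within-animal difference. Between aorta and heart 6 of 23 collagens were called, beside 18% of all genes. For COL8A1, whose aorta values are given above, heart had 7.41, 6.94, 5.56, 6.07, 5.44 and 7.3 FPKM from ZT0 to ZT10 and 7.79, 10.1, 13.9, 9.28, 10.5 and 18 FPKM from ZT12 to ZT22, each dark-phase heart lying above each light-phase one. Its aorta minus heart difference peaked at ZT5.55 with a log2 amplitude of 1.38 ± 0.24 (SE, adjusted p = 0.0169 by limma). COL6A2 in heart had 10.8, 22.7, 21.7, 4.97, 6.22 and 4.29 FPKM in the light phase and 2.64, 2.55, 0.698, 0.822, 1.06 and 0.335 FPKM in the dark phase, without overlap, and its aorta minus heart difference peaked at ZT16.9 with 1.91 ± 0.34 (adjusted p = 0.0174 by limma). The count of 6 became 3 without the animal of ZT2 (7.41% of all genes) or of ZT20 (11.6%), 1 without that of ZT4 (1.27%) and 0 without that of ZT16 (0%) or of ZT18 (0%), so the share of all genes called was lower too. The 0 of 27 collagens in cornea minus skin (0% of all genes, 4 collagens at an unadjusted p under 0.05 beside 16.8% of all genes), 0 of 23 in skin minus subcutaneous fat (0%, 7 collagens beside 3.85%) and 0 of 19 in subcutaneous minus perirenal fat (0%, 1 collagen beside 3.31%), by limma, show no difference past the threshold there. The heart's cardiomyocyte markers stood in the same order, with 2345 to 3893 FPKM in the light phase and 229 to 2220 FPKM in the dark phase, and their part in these differences was not tested.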

How the data were processed

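The deposited table gives FPKM values for poly(A) RNA libraries made with a stranded kit, per the labels. STAR, featureCounts and DESeq2 are named, per the submitters' processing notes, without versions or roles, and the genome build is not given in the sources used here, nor is the strand setting of the counting. Reads from overlapping or antisense genes therefore cannot be told apart. All FPKM values above 0 in the deposited table were whole multiples of a step per gene and library within 0.01 read, and the libraries' steps equalled median-of-ratios factors over 2654 genes, which gave the reads behind each value. Depth per library had quartiles of 6.15 and 10.7 M reads.

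Genes with a tissue mean of at least 1 FPKM were fitted as log2(FPKM + 0.5) in R 4.3.3 with limma 3.58.1 (cosine and sine terms of 24 h, moderated F, variance trend, Benjamini-Hochberg over all genes of the tissue at 0.05). A fold sets the top of the fitted curve against its bottom on that log2 scale, which understates the change of low genes. Tissues were compared by limma on within-animal differences. The pairing comes from the labels, by which 1 animal gave all tissues of a time. Deviations of same-animal libraries correlated at −0.01 to 0.60 in cornea and skin (11 of 12 pairs over 0.1), −0.10 to 0.20 in aorta and heart (7), 0.12 to 0.53 in skin and subcutaneous fat (12) and −0.17 to 0.63 in subcutaneous and perirenal fat (9). No label says whether libraries were prepared in batches. The tests were tried on simulated data first.

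A marker level is the median FPKM of a fixed list, of which all 5 fibroblast, 5 adipocyte, 4 corneal epithelium, 2 keratocyte, 4 leukocyte and 4 cardiomyocyte, 4 of 5 smooth muscle, 4 of 5 epidermis and 2 of 3 stomach genes were measured. Named collagens are the 5 most abundant in aorta, skin, cornea and each depot, those called rhythmic there or the one with the smallest p, each gene at its highest tissue, and up to 5 per direction in each contrast. COL6A2, COL4A1 and COL4A2 in the heart, COL6A6 and COL28A1 values by library, and tissues other than aorta, skin, cornea and fat were chosen for display after their values were seen. The members and the lists were chosen with earlier results of these data known. RefSeq (assembly Panubis1.0) served for names and neighbours only. Alternatives were other pseudocounts (0.1 and 1), no filter or 5 FPKM, quantile scaling, the library score or a linear trend as covariate, no replicate block, each animal left out, and the doubted libraries left out. Limma voom on the recovered reads was added after seeing the data. A count model planned as an alternative was not run, because the unit is FPKM. Python 3.11.15, numpy 2.4.6 and pandas 2.3.3 did the rest.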

Additional observations from a re-analysis of the deposited data

Results flagged for a closer look

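Of 23 collagens tested, 6 were called for a 24 h course that differed between aorta and heart, beside 18% of all genes. The test was of a rhythm in the within-animal difference (limma, adjusted over all genes). The log2 amplitude of the aorta minus heart difference was 1.38 ± 0.24 (SE, adjusted p = 0.0169) for COL8A1, a collagen of vessel walls, with its peak at ZT5.55. For the others the difference was highest in the dark phase. It was 1.91 ± 0.34 (adjusted p = 0.0174) for COL6A2 and 1.75 ± 0.43 (adjusted p = 0.0384) for COL6A1, the beaded filament pair, 1.54 ± 0.37 (adjusted p = 0.0348) for COL4A1 and 1.90 ± 0.38 (adjusted p = 0.0201) for COL4A2, the basement membrane pair, and 2.13 ± 0.53 (adjusted p = 0.0382) for COL1A1, by limma.

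COL4A1 had 85.4 to 215 FPKM in the 12 aortas, and in heart 29.1, 31.6, 36.1, 22.4, 18.8 and 10.8 FPKM from ZT0 to ZT10 and 10.04, 8.77, 2.79, 6.36, 5.17 and 2.63 FPKM from ZT12 to ZT22. The hearts of the light phase all lay above those of the dark phase. In the single tissues the log2 amplitudes of COL4A1 were 0.14 ± 0.18 in aorta and 1.40 ± 0.27 in heart (adjusted p = 0.0176, limma), those of COL4A2 0.26 ± 0.14 and 1.70 ± 0.33, those of COL6A2 0.12 ± 0.10 and 1.79 ± 0.36, those of COL6A1 0.07 ± 0.13 and 1.72 ± 0.41, and those of COL1A1 0.16 ± 0.19 and 2.18 ± 0.46. COL8A1 was the one whose heart values were higher in the dark phase, with 0.55 ± 0.13 and a peak at ZT18.4. Over 20 alternatives the difference was called in 16 for COL8A1 (adjusted p 0.0054 to 0.725, limma), in 14 for COL6A2 (0.00278 to 0.824), in 14 for COL4A2 (0.00259 to 0.996), in 9 for COL4A1 (0.00351 to 0.995), in 8 for COL1A1 (0.00405 to 0.857) and in 7 for COL6A1 (0.00361 to 0.953). With the library score as covariate none of these 6 was called, beside 0% of all genes. Without the ZT4 aorta, which matched another animal, and the ZT4 heart, COL8A1 alone was called, beside 1.27% of all genes. The median of the heart's endothelium markers was 11.8 to 35.4 FPKM in the light phase and 3.54 to 22.3 FPKM in the dark phase, and its part in the differences was not tested.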

How the results depend on the processing

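Level differences between tissues moved little and rhythms much. The number of collagens called was 26 to 27 in cornea minus skin, 19 to 20 in aorta minus heart, 15 to 18 in skin minus subcutaneous fat, 13 to 15 in subcutaneous minus perirenal fat and 29 to 30 in periphery minus brain when each animal was left out. Among all genes the shares called higher were then 44.2% to 45.1%, 51.4% to 52.7%, 42.1% to 44.2%, 29.8% to 32.4% and 49.9% to 50.3%. Those called lower were 41.1% to 42.3%, 28.3% to 29.5%, 23.7% to 25.8%, 12.7% to 18.3% and 40.9% to 41.6%. In subcutaneous minus perirenal fat 3 of 18 collagens were called without the doubted libraries, beside 14.6% of all genes higher and 1.33% lower. In periphery minus brain 17 of 17 were called with a filter at 5 FPKM, where fewer genes are tested, beside 51.7% and 40.7%. Without the replicate block (animals not paired) the counts were 26, 21, 15, 14 and 30 in the order above, the same as with it. Of all genes 42.9%, 52.4%, 40.4%, 28.6% and 48.4% were then higher and 40.6%, 29.7%, 21.8%, 16.6% and 39.3% lower. With no filter, where 38 collagens are tested in each contrast, the counts were 32, 28, 22, 16 and 36. Of all genes 33.1%, 42%, 32%, 21.8% and 40.6% were then higher and 33.7%, 20.7%, 17.9%, 9.75% and 35.1% lower. The filter at 5 FPKM gave 21 of 22, 17 of 18, 11 of 19 and 11 of 14 in the contrasts other than periphery minus brain. Of all genes 48%, 52.4%, 45.8% and 32.5% were then higher and 40.1%, 32.2%, 27.3% and 21.9% lower. A pseudocount of 0.1 gave 20 in aorta minus heart, beside 52.6% of all genes higher and 29.3% lower. A pseudocount of 1 gave 29 in periphery minus brain, beside 50.7% and 41%.

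Leaving out each animal gave 0 to 1 rhythmic collagens in aorta, 0 to 0 in skin, 0 to 5 in cornea, 0 to 9 in the mean of fat depots, 3 to 8 collagen and depot pairs, 9 to 11 body-wide and 0 to 8 for differences between paired tissues. In aorta minus heart the share of all genes called ran from 0% to 25.2% in these fits. For the other fits without 1 animal the share of all genes is not given here, so these ranges are not particular to collagens. With the library score or a linear trend as covariate the count was 0 in cornea, in the mean of fat depots, in depot pairs, body-wide and for paired differences. With the linear trend 0.168% of all genes were called in cornea, 0.0635% in the mean of fat depots and 11.6% body-wide. Without the doubted libraries the count of collagens was 1 in aorta (1% of all genes) and 0 in cornea (0.126%). It was 4 in depot pairs (2 in mesenteric fat, 5.08%, and 2 in pericardial fat, 20.7%) and 1 in aorta minus heart (1.27%). With no filter it was 0 of 36 in cornea (0.597%), 16 of 38 body-wide (48%) and 3 of 38 in aorta minus heart (5.65%). A filter at 5 FPKM gave 3 of 5 body-wide (67.1%) and 4 in depot pairs, all in omental fat (42.5%). Quantile scaling gave 1 in cornea (23.6%). A threshold of 5 FPKM left a median of 8 collagens per tissue. COL17A1 lost its call in cornea in 14 of 21 alternatives (adjusted p 0.0117 to 0.732, limma) and COL7A1 in 13 of 21 (0.0364 to 0.895).

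The fitted peak moved by over 6 h for COL28A1 in omental fat without the doubted libraries (log2 amplitude 0.59) and, with the library score as covariate, for COL1A1 in omental fat (0.87) and body-wide for COL6A2 (0.0653), COL16A1 (0.17) and COL6A1 (0.13). Of the single values, 1069 kept direction and side of the threshold, 113 lost and 4 gained a call. The causes were not tested. With 1 animal per time, animal and hour cannot be told apart, and the shallowest library held 32790 reads.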
